A study of Homo sapiens with 10 samples.

Results

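The effect of knocking down NEMP1 in human cells on a stiff substrate was measured by RNA sequencing of 6 libraries. They were chosen by the treatment and stiffness in their titles, out of 10 libraries in the series, and comprise 3 libraries of siNemp1-treated cells and 3 of control cells, numbered 1 to 3 in each group, all on a substrate of 120 kPa. The cells are hTERT RPE-1, an established human line derived from retinal pigment epithelium and kept dividing by added telomerase. siNemp1 is a small interfering RNA against NEMP1. The labels do not give its sequence, the time of treatment or what the control cells received. The other 4 libraries, 2 control and 2 siNemp1, are of the same line on a soft substrate of 10 kPa and serve below as a separate readout.

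NEMP1 spans the inner nuclear membrane several times and is known for supporting the stiffness of the nuclear envelope. LINC complexes, built of SUN proteins in the inner and nesprins in the outer nuclear membrane, tie the nuclear lamina to the cytoskeleton, so that forces from a stiff substrate, taken up by integrins and actin, reach the nucleus. Cells on stiff substrates usually spread, build stress fibres and deposit more matrix than cells on soft ones.

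The 6 libraries held 17.9 to 23.2 M estimated counts (M for 1000000), and 13362 genes had enough counts to be tested. Between replicates of a group the chi-square per gene was 23.0 to 100.7, far above the value near 1 that counting error alone would give. Libraries with the same number deviated together, so each siNemp1 library was also compared with the control library of its own number, which is called the paired fit below. Of the epithelial markers KRT8, KRT18, OTX2, PAX6 and MITF were present in every library, while RPE65, RLBP1, TYR, TTR and LRAT lay under 1 count per 1000000 (CPM) and RAX at 0. The summed epithelial list, most of it the general keratins KRT8 and KRT18, ranged from 1676 to 2213 CPM in the controls and from 1604 to 1994 in siNemp1. The mesenchymal sum, most of it vimentin (VIM), ranged from 3262 to 4029 and from 2328 to 3043 CPM, with COL3A1 at 0. Markers of blood vessel cells summed to 3.22 to 4.95 and 3.78 to 6.54 CPM (CDH5 at 0). Of the leukocyte list (735 to 1179 and 524 to 802 CPM) nearly all was the lysosomal protein CD68, and CD3D and MS4A1 were at 0. Neuronal markers summed to 535 to 679 and 410.2 to 627 CPM, most of it the tubulin TUBB3, with DCX and ELAVL4 at 0. Genes of the mitochondrial chromosome took 1.73%, 1.40% and 0.913% of the counts in control and 1.06%, 0.826% and 0.709% in siNemp1, a value that moves with the results below and whose part in them was not tested.

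NEMP1 itself fell, and with it the paired fit called many small changes. NEMP1 (ENSG00000166881, chromosome 12, 57055643 to 57088063, minus strand, GRCh38) lay at 18.9, 13.9 and 14.01 CPM in the controls and at 7.32, 6.65 and 4.11 in siNemp1, replicates 1, 2 and 3 in that order here and below. Every siNemp1 library was below every control library. The log2 change was −1.40 ± 0.17 (± SE of the fit, n = 3 pairs), and the adjusted p was 0.013 (edgeR quasi-likelihood, Benjamini-Hochberg over all genes tested). Its paralog NEMP2 lay at 4.72, 5.41 and 4.78 against 5.40, 5.87 and 5.49 CPM, groups that overlap, and did not pass (0.17 ± 0.17).

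Across all genes the paired fit called 1255 of 13362 at an adjusted p under 0.05 (9.39%), with 799 higher (5.98%) and 456 lower (3.41%) in siNemp1. The same test without pairs called 0 (0%), although 1451 genes had an unadjusted p under 0.05, and its lowest adjusted p was 0.32. DESeq2 without pairs called 70. All calls below therefore rest on the pairing, and they rest on the pair numbered 2 as well: 4 genes were called without it, 553 without pair 1 and 2363 without pair 3. They also depend on transcript length and GC: with the trends of each library in the length and GC of a gene's longest transcript removed, called the length-adjusted fit below, 715 of 13362 genes passed, 454 higher and 261 lower, and 596 of the 1255 were among them. These counts over all genes, lower than those of the paired fit, are the background for each list count from the length-adjusted fit. The changes were small. Only 51 of the 1255 reached a change of 2-fold, and the median size was 0.52 on the log2 scale in both directions. All 3 pairs had the sign of the fit in 799 of the 799 genes called higher and in 455 of the 456 called lower, against 48.7% of all genes with 3 pairs of one sign, which the paired test favours by its construction. The control and siNemp1 values did not overlap in 560 of the genes called higher and 271 of those called lower, against 9.8% and 8.34% of all genes tested (18.1% in either direction). Nothing in the labels says that replicates came from separate cultures, so the p-values reflect the spread among these 6 libraries alone, and that spread may be technical.

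**Figure D1:**
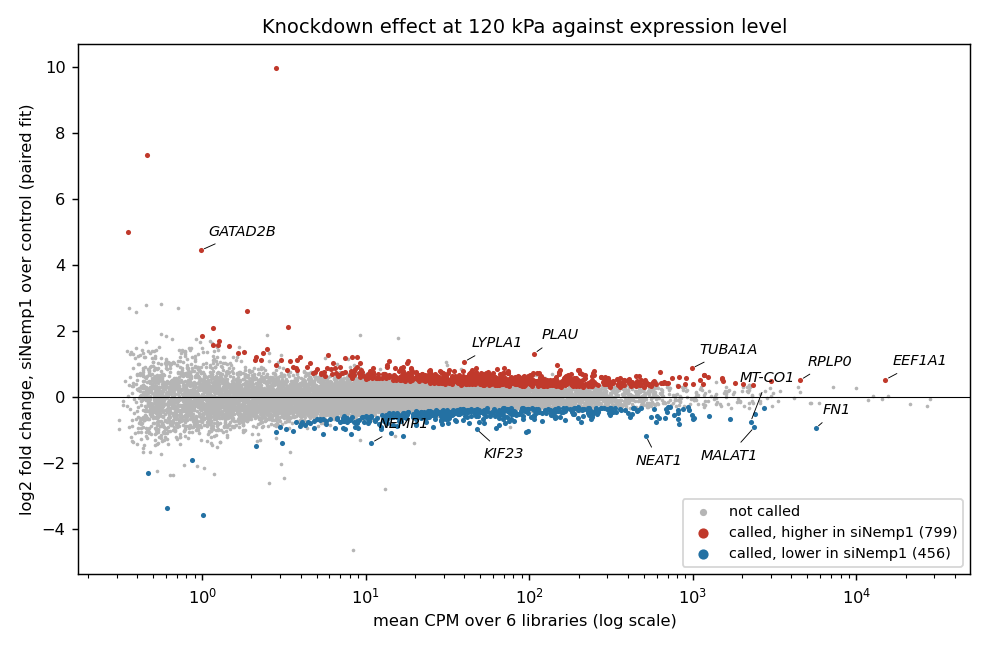
Log2 fold change of siNemp1 over control in the paired fit (vertical axis) against the mean level in CPM over the 6 libraries (horizontal axis, log scale), 1 point per gene, red for the 799 genes called higher and blue for the 456 called lower. Most called genes lie within 1 log2 unit of no change, and the few far outside have low levels, such as GATAD2B, whose control libraries held 1 or 2 counts.

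The 20 largest called rises, taken where the mean reached 5 CPM and the groups did not overlap, ran from 0.86 to 1.31 on the log2 scale. Besides PLAU, the urokinase protease, they included LYPLA1 (an enzyme that removes palmitate from proteins), SELENOT (a selenoprotein of the endoplasmic reticulum), PTPRR (a tyrosine phosphatase that acts on MAP kinases), TUBA1A (an alpha-tubulin), CLDND1, CHIC2, GSKIP, COMMD8 and HIPK3. LYPLA1 lay at 20.4, 22.4 and 35.4 CPM in the controls, and at 46.1, 46.2 and 69.1 after knockdown, each siNemp1 library above all controls (log2 change 1.06 ± 0.10, adjusted p 0.013). SELENOT lay at 95.7, 80.0 and 129 against 197, 178 and 205 CPM (0.95 ± 0.11). TUBA1A lay at 737, 601 and 739 against 1596, 1304 and 942 CPM (0.86 ± 0.15). Its rise was large in pairs 1 and 2 and smaller in pair 3, and near-identical tubulin genes share some of its reads. PLAU lay at 54.9, 63.4 and 57.3 against 102, 124 and 241 CPM, so that replicate 3 was far above the others. Its adjusted p of 0.049 was the highest of these 20, and it did not pass in the length-adjusted fit, without a filter on low counts or without pair 1.

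The 20 largest falls ran from −0.84 to −1.40 and took in structural and division genes as well as nuclear RNAs. ACTN4, an actin crosslinker of stress fibres (chromosome 19, 38647649 to 38731583, plus strand), lay at 114, 149 and 131 CPM in the controls and 59.5, 83.3 and 51.9 in siNemp1, with no overlap and a log2 change of −1.04 ± 0.11. KIF23, the kinesin of the cytokinetic midzone (chromosome 15, 69414246 to 69448427, plus strand), lay at 78.9, 56.3 and 51.9 against 49.1, 29.6 and 20.2 CPM (−0.98 ± 0.13). Control replicate 1 was the highest and siNemp1 replicate 3 the lowest, and the groups did not overlap. TTLL3 (a tubulin glycylase), VTN (the matrix protein vitronectin), ST3GAL5 (a ganglioside sialyltransferase), MYPN (a sarcomere and actin-binding protein) and CD74 (the invariant chain of class II presentation) were also among the 20. The adjusted p of these 40 genes ran from 0.013 to 0.049 (edgeR, paired).

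The most abundant called genes split evenly. Of the 10 with the highest mean CPM, 5 rose and 5 fell. EEF1A1, the elongation factor that brings aminoacyl-tRNA to the ribosome, lay at 12538, 11077 and 13440 CPM in the controls and 19274, 17954 and 15853 in siNemp1, with no overlap (0.52 ± 0.11, adjusted p 0.023). It has many processed pseudogenes that can take part of its reads. FN1, the matrix protein fibronectin, lay at 9218, 7784 and 4913 against 5281, 4739 and 1948 CPM (−0.95 ± 0.12). Its groups overlap, because control replicate 3 was below siNemp1 replicate 1, while each pair fell. The others were RPLP0, RPL15, TMSB4X and the complement regulator CD59, which rose, and MALAT1, HSP90B1, MT-CO1 and MT-RNR2, which fell.

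**Figure D2:**
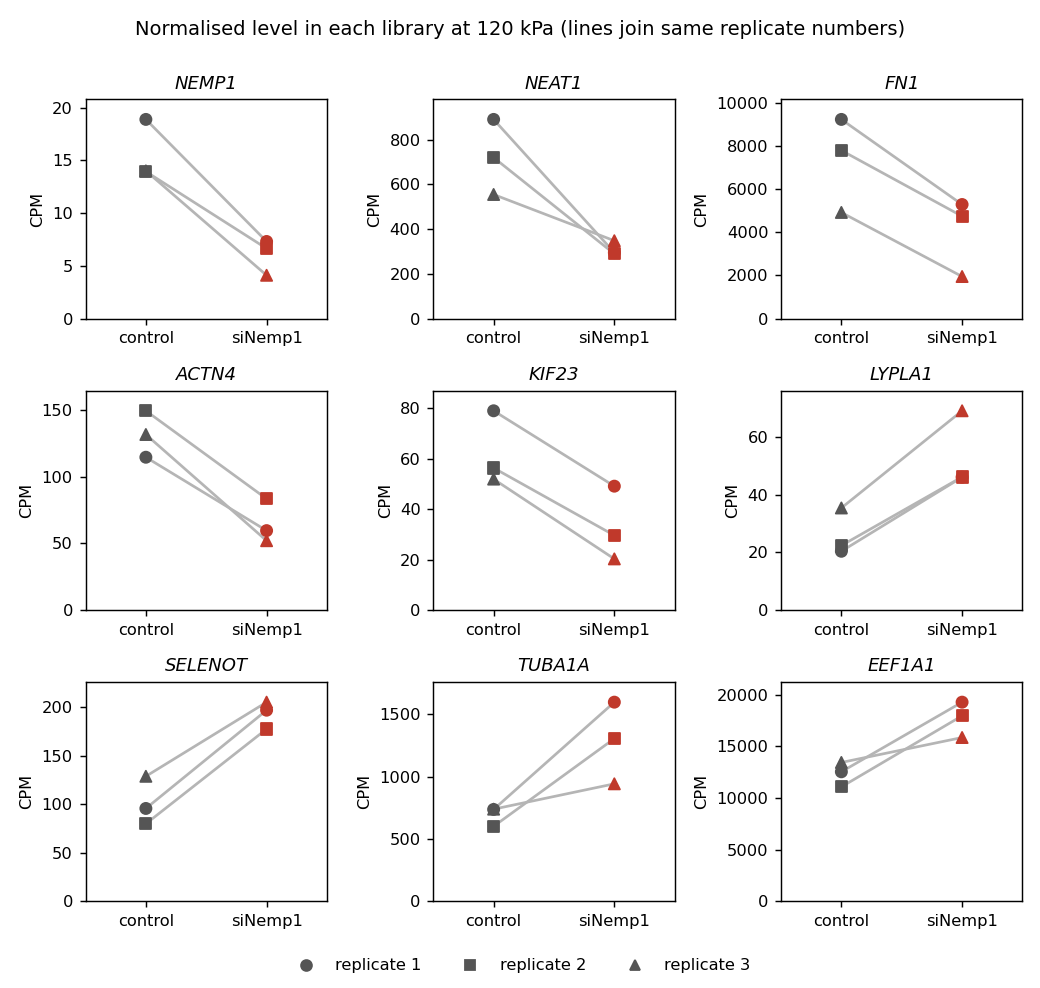
Level in CPM (vertical axes, starting at 0) of 9 genes in each of the 6 libraries at 120 kPa, with lines joining control and siNemp1 libraries of the same number (circle 1, square 2, triangle 3). Every line of NEMP1, NEAT1, FN1, ACTN4 and KIF23 goes down and every line of LYPLA1, SELENOT, TUBA1A and EEF1A1 goes up, although the groups of FN1 overlap.

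Several abundant long noncoding RNAs of the nucleus fell. Of 14 tested in that list, 4 fell and 1 rose, with a median of −0.23 on the log2 scale against −0.02 over all genes. NEAT1, the scaffold RNA of paraspeckles (chromosome 11, 65422774 to 65445540, plus strand), lay at 891, 720.3 and 555 CPM in the controls and 295, 289.6 and 348 in siNemp1. The siNemp1 libraries lay close together and all below the controls (−1.19 ± 0.16, adjusted p 0.013). MALAT1, a neighbour of NEAT1 found in nuclear speckles (chromosome 11, 65497688 to 65506516, plus strand), lay at 4250, 3047 and 2149 against 1725, 1432 and 1671 CPM, also without overlap (−0.92 ± 0.17). TALAM1, which is antisense to MALAT1, fell by a similar amount (−0.94 ± 0.14). The labels do not give strandedness, so reads of these overlapping RNAs, and of KCNQ1OT1 within KCNQ1 (−1.20 ± 0.17), cannot be told apart from those of their partners. The imprinted RNA MEG3 lay at 269, 286 and 225 against 132, 144 and 187 CPM (−0.76 ± 0.15). CYTOR, a noncoding RNA mostly found in the cytoplasm, rose (0.71 ± 0.11). The counts in the length-adjusted fit were also 4 lower and 1 higher. By pair, the list's median was −0.60, −0.46 and −0.05, so the third pair showed little of it.

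At 10 kPa NEAT1 changed by −0.14 (adjusted p 0.084) and MALAT1 by −0.37. The test of the difference between stiffnesses gave NEAT1 a log2 difference of −1.04 with an unadjusted p of 0.00061 and an adjusted p of 0.34, so a difference was not shown.

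Nuclear genes for the respiratory chain and the mitochondrial ribosome rose in part. Of 35 complex I subunits 11 rose, of 24 subunits of complexes II to IV 14, of 17 ATP synthase subunits 6 and of 76 mitochondrial ribosomal proteins 26, and none in these lists fell. Their medians were 0.32, 0.36, 0.31 and 0.31 on the log2 scale, against −0.02 over all genes. SDHD, the membrane anchor of succinate dehydrogenase, lay at 116, 95.4 and 126 CPM in the controls and 199.7, 177 and 193 in siNemp1, without overlap (0.76 ± 0.09). MRPL49, a protein of the large mitochondrial ribosomal subunit, lay at 126, 132 and 184 against 250.5, 251 and 265 CPM (0.81 ± 0.11). NDUFA7 (0.60), COX7B (0.58) and ATP5PB (0.55) rose as well. Protein import into mitochondria followed in smaller number, with 5 of 23 higher and 1 lower (TOMM34, −0.50). In the length-adjusted fit these 5 lists had 4, 4, 2, 8 and 1 higher, against 454 of 13362 over all genes. Their medians there were 0.17, 0.23, 0.15, 0.21 and 0.12. SDHD, MRPL49, NDUFA7, COX7B and ATP5PB passed there.

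Citric acid cycle enzymes, listed together with pyruvate dehydrogenase, did not move as a group. Of 18 genes 2 rose, PDHB of pyruvate dehydrogenase and SUCLG1, and 1 fell, citrate synthase (CS, −0.33), with a median of 0.04. Neither PDHB nor SUCLG1 passed in the length-adjusted fit. RNAs of the mitochondrial chromosome were lower. Of 15 tested 12 fell and 0 rose, with a median of −0.59. The 15 include ribosomal RNA, such as MT-RNR2, and the libraries were depleted of ribosomal RNA. Whether that depletion differed between libraries was not tested. MT-CO1, a catalytic subunit of complex IV, lay at 3767, 3119 and 1557 CPM in the controls and 2670.1, 1420 and 974 in siNemp1, groups that overlap while each pair fell (−0.77 ± 0.12). At 10 kPa 7 of these genes fell and 1 rose, with a median of −0.18. The one that rose was MT-CO1, by 0.39 (adjusted p 0.00073), and the difference between stiffnesses, −1.14 on the log2 scale, had an adjusted p of 0.23.

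Parts of the protein synthesis and folding machinery rose. Of 80 cytosolic ribosomal proteins 28 rose and 0 fell (median 0.30, and 75 above 0). Their processed pseudogenes can take part of their reads. Of 55 translation factors 5 rose and 5 fell, and of 32 aminoacyl-tRNA synthetases 2 rose, with medians of 0.11 and 0.06. Ribosome biogenesis factors, which assemble ribosomes in the nucleolus, had 1 higher and 1 lower of 30 (median −0.05). Of 42 proteasome genes 13 rose and 0 fell (median 0.27), and of 11 genes of the CCT chaperonin and prefoldin, which fold actin and tubulin, 5 rose and all 11 lay above 0 (median 0.35). PSMB1, a subunit of the proteasome core, lay at 202, 193 and 260.4 CPM in the controls and 346, 308 and 333 in siNemp1, without overlap (0.60 ± 0.10). The chaperonin subunit CCT7 lay at 339, 365 and 462 against 489, 487 and 546 CPM (0.40 ± 0.09). Ubiquitin-conjugating enzymes had 5 of 32 higher, UBE2E1 the most (0.82), whereas the HECT and giant ubiquitin ligases, long genes, had 0 of 25 called and 3 above 0, with a median of −0.15 that was 0.02 in the length-adjusted fit.

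These counts depend on length and GC, which were adjusted jointly, and on single pairs. In the length-adjusted fit the ribosomal proteins had 5 of 80 higher, the proteasome 2 of 42 and the CCT and prefoldin list 1 of 11. Over all genes 454 of 13362 were higher in that fit. The medians of the 3 lists there were 0.18, 0.15 and 0.20. PSMB1 passed there and CCT7 did not. With complexes II to IV (24 genes) as the last of 4 lists, 1, 1, 1 and 3 genes were higher without pair 1. None were without pair 2, and 59, 21, 8 and 19 were without pair 3. Over all genes 344 of 13472 were higher without pair 1 and 1336 of 13313 without pair 3. Without pair 2 only 1 of 13470 was, so the list counts there could hardly differ from 0. The ribosomal proteins had medians of 0.39, 0.43 and 0.11 in pairs 1, 2 and 3, and complexes II to IV 0.45, 0.42 and 0.19.

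Genes of protein entry into the endoplasmic reticulum, of lysosome acidification and of the selenoproteins rose in part. Lysosomal enzymes and NRF2 targets did not exceed the background. Of 32 genes of the endoplasmic reticulum translocon, signal peptidase and oligosaccharyltransferase 9 rose and 1 fell, among the former OSTC (0.58), SRP9 (0.57) and TRAM1 (0.51). After length adjustment 3 rose, TRAM1 among them, and OSTC and SRP9 did not pass. V-ATPase subunits, which acidify lysosomes, had 5 of 20 higher and 1 lower, and lysosomal enzymes 2 of 38 higher and 1 lower, with a median of −0.10. PPT1, the lysosomal enzyme that removes palmitate from proteins, lay at 123, 101 and 119 CPM in the controls and 186, 173 and 207 in siNemp1, without overlap (0.72 ± 0.09). Of 19 selenoproteins 7 rose and 0 fell (median 0.25), and 3 rose in the length-adjusted fit (0.29), GPX1 and SELENOT among them. GPX1, the glutathione peroxidase of the cytosol, lay at 101, 154 and 272 against 182, 258 and 354 CPM, rising within each pair although replicate 3 of both groups lay highest (0.66 ± 0.10). Of 21 NRF2 targets, which answer oxidative stress, 0 were called, with a median of −0.10.

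Cytoskeleton lists differed in the direction of their called genes, and that difference was not tested. Of 38 genes of the Arp2/3 complex and of actin turnover, which build and recycle branched actin, 9 rose and 0 fell, although the median was 0.02. CAPZA2, an actin capping subunit, lay at 146, 121 and 165 CPM in the controls and 286, 248 and 228 in siNemp1, with no overlap (0.82 ± 0.12). ARPC5, an Arp2/3 subunit, lay at 131, 129.8 and 153 against 223, 235 and 209 CPM (0.69 ± 0.10). The actin monomer binders TMSB10 (0.60) and TMSB4X (0.48) rose too, and beta-actin (ACTB, −0.21 ± 0.10, adjusted p 0.20) did not pass. With length adjusted 4 of the 38 rose, CAPZA2 and ARPC5 among them, and neither thymosin gene passed.

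Large linker proteins lay lower. Of 27 cytolinkers, spectrins and filamins, which crosslink actin, microtubules and membranes, 7 fell and 0 rose, with 1 member above 0 and a median of −0.31. MAP4, a microtubule stabiliser, lay at 306, 318 and 282 CPM in the controls and 221, 235 and 209 in siNemp1, without overlap (−0.45 ± 0.08). AHNAK, a giant protein under the plasma membrane, lay at 308, 243 and 237 against 214, 200.1 and 167 CPM (−0.44 ± 0.09). ANK3 (−0.52), MAP1A (−0.52), UTRN (−0.49), LMO7 (−0.49) and DST (−0.42) were the others. ANK3, DST and UTRN here, and CEP295 and IFT122 below, were named after their values were seen. Plectin (PLEC), a linker that also binds the nuclear envelope, lay at 14.03, 24.4 and 28.1 against 11.9, 21.8 and 19.6 CPM, groups that overlap, and did not pass (−0.31 ± 0.13). In the length-adjusted fit 1 of the 27 was lower, at a median of −0.07, and AHNAK, LMO7, MAP1A and MAP4 did not pass. Without pair 1 there was also 1 lower, against 209 of 13472 over all genes.

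Of 46 centrosome and centriole genes 5 fell and 0 rose (median −0.31): CEP152, CENPJ, CEP164, CEP295 and OFD1. CEP152, which recruits the kinase of centriole duplication, lay at 13.8, 10.9 and 8.98 CPM in the controls and 7.22, 4.47 and 5.93 in siNemp1, without overlap (−0.93 ± 0.18). After length adjustment 3 fell at a median of −0.22, CEP152 among them. Intraflagellar transport and BBSome genes, which serve the cilium that centrioles template, had 7 of 31 higher, among them IFT52 (0.52) and BBS12 (0.63), and 1 lower (IFT122, −0.47). Their median of 0.08 was −0.08 without pair 3, and 3 rose in the length-adjusted fit. Kinesins had 2 of 28 lower, KIF23 and KIF20B (median −0.21), and dynein and dynactin genes 4 of 23 higher, among them the light chain DYNLL1 (0.50, median 0.07).

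**Figure D3:**
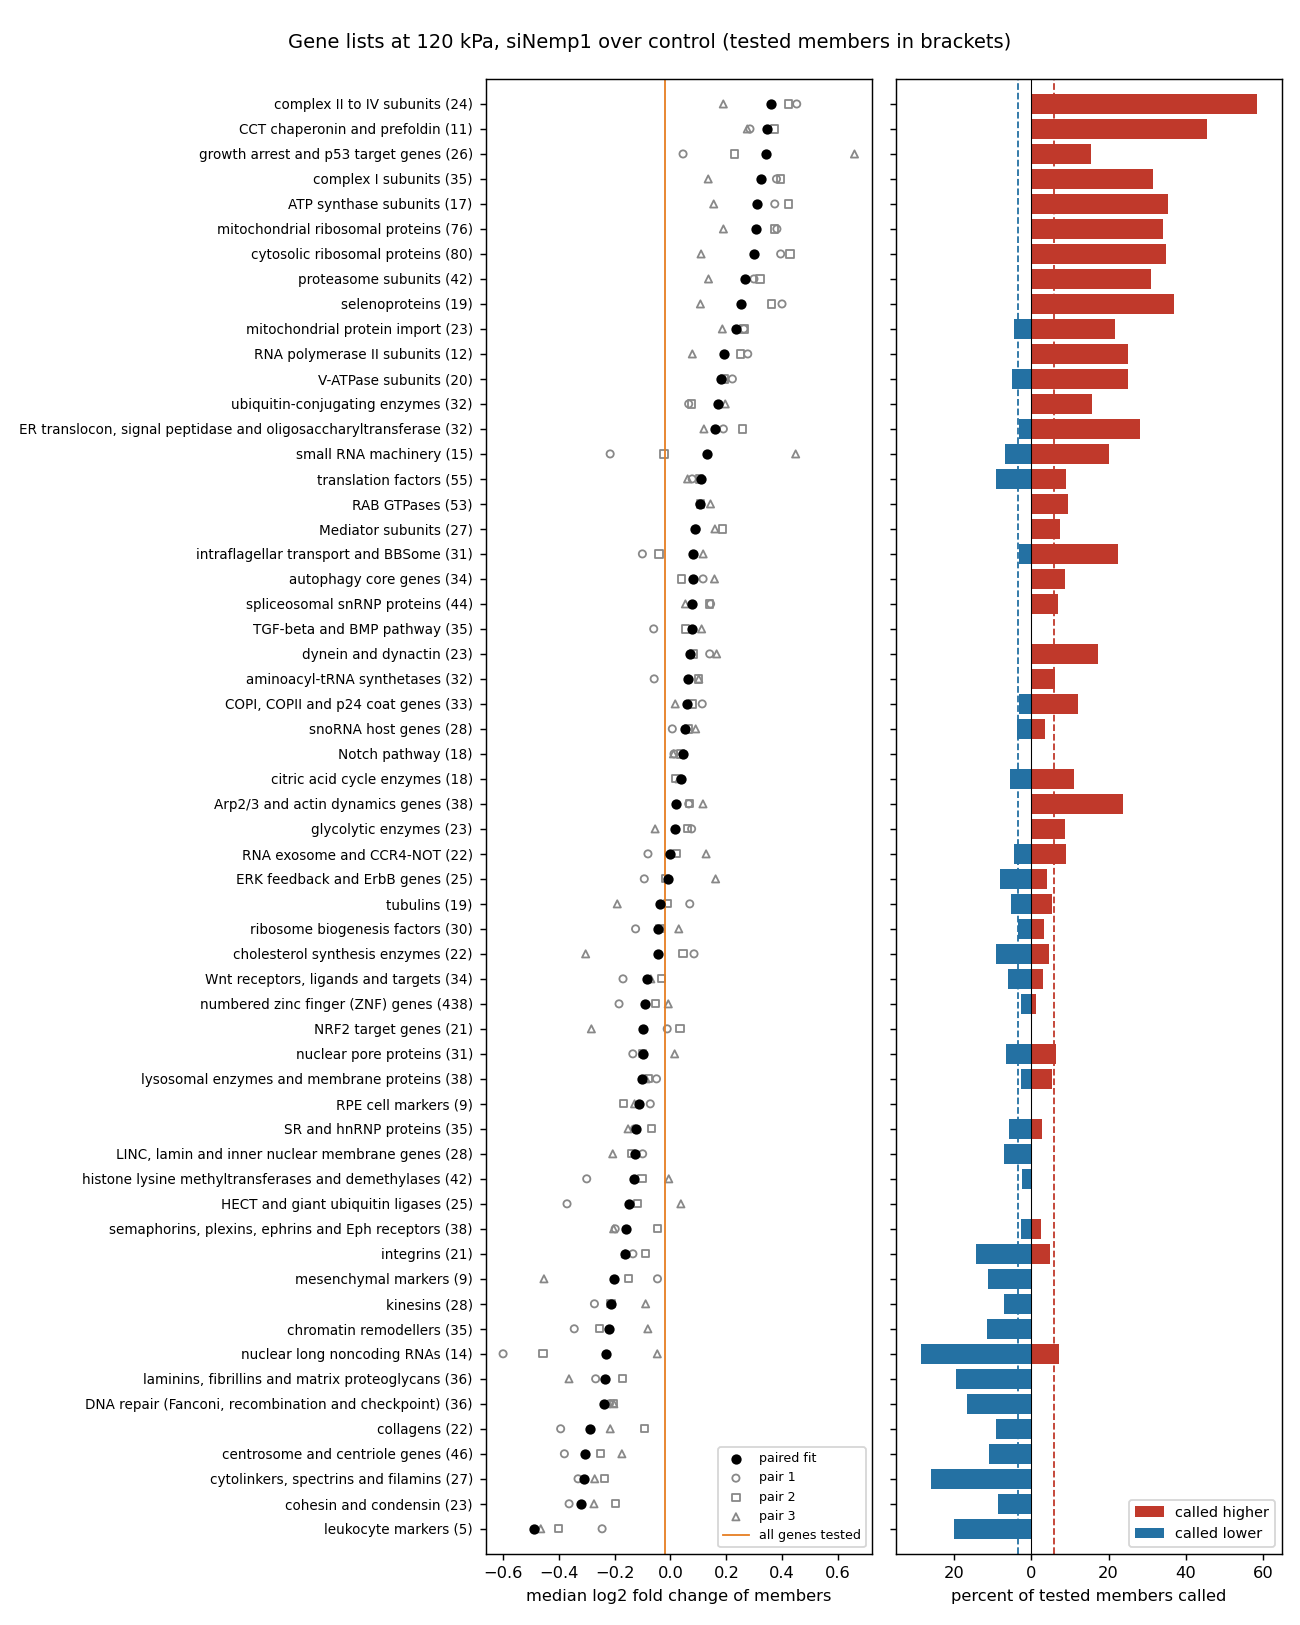
Gene lists with at least 5 tested members, apart from those not reported here, ordered by the median log2 fold change of siNemp1 over control. The left panel gives the median in the paired fit (filled) and within each pair (open), beside the median of all genes (orange line), and the right panel the percent of members called higher (red) or lower (blue), beside the percent over all genes (dashed). Respiratory chain, ribosomal, proteasome, chaperonin and p53 lists lie at the top and cytolinker, centrosome and matrix lists near the bottom, and pair 3 lies apart from pairs 1 and 2 for the p53 and small RNA lists.

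Genes of the nuclear envelope changed little beside NEMP1. Of 28 genes of LINC complexes, the lamina and the inner nuclear membrane 2 fell, NEMP1 and the importin KPNB1, and 0 rose (median −0.13). KPNB1 lay at 221, 208 and 216 CPM in the controls and 163, 162 and 188 in siNemp1, without overlap (−0.33 ± 0.09, adjusted p 0.047), and did not pass with DESeq2's size factors or in the length-adjusted fit. SUN1 lay at 129, 141 and 89.0 against 137, 138 and 116 CPM (0.14 ± 0.10), and SUN2 at 9.96, 15.4 and 15.4 against 8.56, 13.8 and 14.4 CPM (−0.16 ± 0.13). Emerin (EMD) lay at 28.2, 44.4 and 44.4 against 41.6, 49.95 and 50.8 CPM (0.31 ± 0.11). Lamin A/C (LMNA) lay at 262, 628 and 627 against 327, 547 and 446 CPM (−0.13 ± 0.14). None of these 4 passed, and all 4 had overlapping groups. Nuclear pore genes had 2 of 31 higher (NUP37, RAE1) and 2 lower (NUP214, POM121), and of these RAE1 passed in the length-adjusted fit.

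Some chromatin and genome maintenance genes fell. Of 35 chromatin remodellers 4 fell and 0 rose (median −0.22), of 23 cohesin and condensin genes 2 fell (−0.32, with 1 above 0) and of 36 genes of the Fanconi, recombination and checkpoint pathways 6 fell (−0.24). KMT5A, the histone H4 lysine methyltransferase, lay at 49.7, 50.6 and 61.6 CPM in the controls and 27.8, 32.5 and 33.4 in siNemp1, without overlap (−0.79 ± 0.10), and was the single one called of 42 histone lysine methyltransferases and demethylases. CHD4, the ATPase of the NuRD complex, lay at 249, 249 and 226 against 188, 191 and 165 CPM (−0.42 ± 0.08). The checkpoint kinases ATM (−0.45 ± 0.11) and ATR (−0.54 ± 0.12) and the Fanconi gene FANCA (−0.63 ± 0.16) fell. Numbered zinc finger genes, a large family of DNA-binding proteins, had 5 higher and 11 lower of 438. These shares, 1.14% and 2.51%, lay below the 5.98% and 3.41% over all genes. In the length-adjusted fit 1 remodeller was lower (median −0.06), 2 cohesin and condensin genes (−0.25), 0 repair genes (−0.18) and 11 zinc finger genes. KMT5A passed there, and CHD4, ATM, ATR and FANCA did not.

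Matrix genes that were called fell. Of 36 laminins, fibrillins and matrix proteoglycans 7 fell and 0 rose (median −0.24), and of 22 collagens 2 fell (−0.29), COL12A1 and COL5A2. With length adjusted 5 genes of the first list fell and 1 rose, LAMC1 among those that fell, whereas 2 collagens rose and 0 fell, at a median of −0.09. LAMC1, the laminin gamma chain of basement membranes, lay at 144, 124 and 112 CPM in the controls and 91.6, 86.8 and 69.2 in siNemp1, without overlap (−0.62 ± 0.09). Of 21 integrins, the receptors for this matrix, 3 fell and 1 rose. ITGA3, a laminin receptor chain, lay at 469, 811 and 749.7 against 380.1, 500.2 and 409 CPM, with overlap because control replicate 1 was low (−0.63 ± 0.11). The mesenchymal marker sum given above, most of it VIM, moved the same way as this list, and its part in these values was not tested. In bulk libraries fewer cells of a type and less RNA per cell cannot be told apart.

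Signalling lists gave few calls. TGF-beta and BMP (35 genes) and Notch (18) had 0 called, and Wnt had 1 higher and 2 lower of 34, with a median of −0.08 that was 0.05 in the length-adjusted fit. Of 25 ERK feedback and ErbB genes the ligand TGFA rose and the receptor EGFR and the immediate early factor EGR1 fell. EGFR did not pass in the length-adjusted fit. EGR1 lay at 21.2, 19.9 and 18.6 CPM in the controls and 11.8, 11.4 and 12.7 in siNemp1, without overlap (−0.73 ± 0.13). TGFA lay at 14.1, 13.6 and 14.7 against 20.6, 22.1 and 30.5 CPM (0.77 ± 0.14). CCN2, a target of the stiffness-sensitive YAP coactivators, lay at 29.5, 27.9 and 42.2 against 29.9, 41.7 and 67.6 CPM, and did not pass (0.43 ± 0.14, adjusted p 0.076).

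Growth arrest and p53 target genes rose most in the third pair. Of 26 tested 4 rose and 0 fell, with a median of 0.34, but of 0.04, 0.23 and 0.66 in pairs 1, 2 and 3. CDKN1A, the inhibitor p21 of cell cycle kinases, lay at 269, 502 and 836 CPM in the controls and 316, 654 and 1274 in siNemp1. The spread between replicates was larger than the difference within pairs (0.41 ± 0.10, adjusted p 0.031), and it did not pass in the length-adjusted fit. TRIAP1, a small p53-regulated survival gene, lay at 37.3, 36.0 and 58.7 against 51.4, 66.3 and 133 CPM (0.85 ± 0.13). At 10 kPa this list had 4 higher and 1 lower of 24, at a median of 0.01.

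Promoter sequences of genes that moved together were compared as a description. RefSeq promoters (GRCh38.p14, 250 bases before to 50 after the start) were found for 656 of the 799 genes called higher and 347 of 455 called lower, 1 fewer than the 456 because a symbol shared by several genes was left out. An ETS word, CCGGAAGT, on either strand occurred in 11.4% of the former, 6.34% of the latter and 8.89% of all 10638 promoters of tested genes. A YY1 word, AAGATGGCG, occurred in 6.40%, 4.04% and 3.99%, and in 15.4% of the 130 promoters of the respiratory and mitochondrial ribosome lists. An NRF1 word, GCGCATGCG, occurred in 3.51%, 3.75% and 3.90%, and in 10.0% of those 130. With the word 1 letter longer, as first searched, the shares were 2.59%, 2.31%, 2.43% and 3.85%, so the order of the first 3 depends on the word. Where it overlaps its own reverse complement, both are in capitals. The cell cycle homology word TTTGAA occurred in 9.76%, 14.7% and 9.97%, and an SP1 word, GGGCGGGG, in 32.5%, 33.1% and 37.8%. None of these words contains another. Such a match is not a binding site. The stretches below lie within 150 bases before the RefSeq start and outside the GENCODE 29 gene, are written 5′ to 3′ on the gene's strand, and have the word in capitals. They are shown because each belongs to a called gene of these groups. MRPL17, MRPL52 and RPS6 were chosen for their sequence after their values were seen.
RPS6 (ETS, chr9:19380255-19380386, minus strand): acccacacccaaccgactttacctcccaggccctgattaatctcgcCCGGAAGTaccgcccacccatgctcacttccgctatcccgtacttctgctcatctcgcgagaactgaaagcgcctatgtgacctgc
MRPL52 (YY1, chr14:22829737-22829878, plus strand): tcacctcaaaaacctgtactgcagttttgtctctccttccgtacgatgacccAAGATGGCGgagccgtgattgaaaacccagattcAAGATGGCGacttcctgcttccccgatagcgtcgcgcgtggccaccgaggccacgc
MRPL17 (NRF1, chr11:6683402-6683490, minus strand): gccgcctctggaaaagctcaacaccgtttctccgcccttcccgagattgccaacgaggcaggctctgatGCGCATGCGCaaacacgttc
SDHD (NRF1, chr11:112086723-112086772, plus strand): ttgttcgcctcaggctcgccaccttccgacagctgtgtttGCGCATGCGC
KIF23 (ETS on the other strand, chr15:69414199-69414245, plus strand): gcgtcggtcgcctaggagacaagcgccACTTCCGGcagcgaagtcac

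RPS6, a protein of the small ribosomal subunit, lay at 983, 1059.7 and 1678 CPM in the controls and 1739.6, 1751 and 1881 in siNemp1, without overlap (0.57 ± 0.13). MRPL17 lay at 93.8, 80.6 and 107 against 122, 125 and 131 CPM (0.43 ± 0.10), also without overlap, and MRPL52 rose in each pair by less than the controls differ among themselves (0.42 ± 0.10). The same ETS word stands before RPS6, which rose, and KIF23, which fell. The promoters shown were picked from 7 with such a stretch, so no share can be read from them. A part of the word in these changes was not tested.

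Called genes differed by transcript length and GC. The median transcript length, itself the median over a gene's protein-coding transcripts, was 1126 bases for genes called higher, 2687 for genes called lower and 1732 over all genes tested, with medians of 5, 9 and 6 exons. With genes divided by length into 10 equal bins, the share called higher was 7.79% in bin 1, the shortest, and highest in bin 3 at 10.7%. In bin 10, the longest, it was 1.06%. The share called lower was 2.42%, 2.35% and 7.56% in bins 1, 3 and 10. From bin 3 to bin 10 the median difference went from 0.13 to −0.29 in pair 1, from 0.12 to −0.17 in pair 2 and from 0.05 to −0.08 in pair 3. At 10 kPa it went from 0.07 to −0.18. In bin 1 it was 0.04, 0.05 and 0.05 in pairs 1, 2 and 3, and 0.04 at 10 kPa. That measure understates genes with many short annotated transcripts: AHNAK has 584 bases by it. By the longest transcript the medians were 2119, 5322 and 3305 bases, and from the shortest to the longest bin the share called higher went from 13.3% to 1.21% and the share called lower from 1.21% to 9.002%. Removing length and GC trends by the first measure left 1093 genes called, 844 of the 1255 among them, and by the longest transcript the 715 given above. In that fit the longest bin had 41 genes higher and 26 lower. In 10 equal bins by GC, the share called higher went from 9.30% in the lowest to 1.51% in the highest. The share called lower was 2.80% in the lowest, 4.77% in bin 8 and 1.06% in the highest. In the highest GC bin the pairs differed in sign. The median difference there was 0.12, −0.04 and −0.19 in pairs 1, 2 and 3, and −0.18 at 10 kPa.

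**Figure D4:**
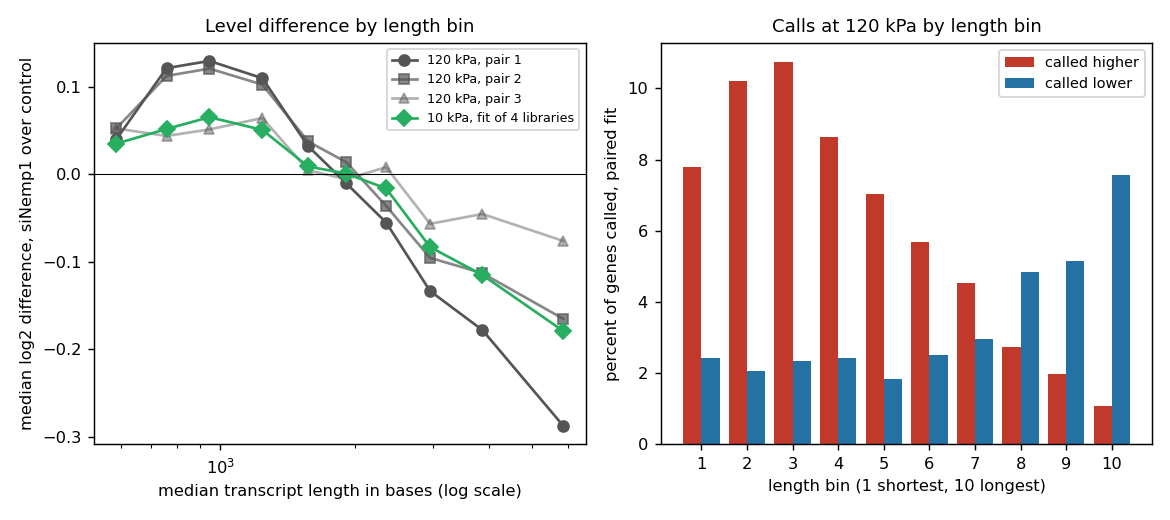
Left, median log2 difference of siNemp1 over control (vertical axis) in 10 equal bins of genes by transcript length in bases (horizontal axis, log scale), for each pair at 120 kPa and for the fit at 10 kPa. Right, percent of genes called higher (red) or lower (blue) at 120 kPa in each bin. Long genes lie lower in all 3 pairs and at 10 kPa, with the steepest slope in pair 1.

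The 10 kPa libraries, which the calls did not use, gave the same direction for most called genes. Of 795 genes called higher at 120 kPa and tested at both stiffnesses, 762 (95.8%) lay above 0 at 10 kPa, against 48.2% of all 13122 genes tested in both. The 95% exact binomial interval, 94.2% to 97.1%, treats genes as independent, although all were measured in the same 4 libraries. It does not measure the spread between libraries. Of 455 called lower, 441 (96.9%) lay below 0, against 51.8%. With length and GC trends removed in both fits the shares were 93.8% and 95.4%, and 93.3% and 95.4% by the longest transcript. The fit at 10 kPa called 17.3% of its genes, 8.1% higher and 9.19% lower. It called 427 of the 795 higher (53.7%) and 272 of the 455 lower (59.8%), and 3 and 1 in the opposite direction. These make up 39.6% of the genes it called higher and 22.5% of those it called lower. The median log2 changes at 120 and 10 kPa were 0.51 and 0.26 for the genes called higher and −0.51 and −0.29 for those called lower. The genes were picked by their calls at 120 kPa, so these sizes were not compared by a test.

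Some groups were called in greater number on the soft substrate, where the 4 libraries varied less. Cytolinkers had 18 lower of 26 at 10 kPa (median −0.41), chromatin remodellers 18 of 35 (−0.28), HECT and giant ligases 12 of 25 (−0.25) and proteasome genes 22 higher of 42 (0.19). Complex I subunits had 11 higher of 34 (0.15) and ribosomal proteins 18 of 80 (0.11), at smaller medians than at 120 kPa. These counts at 10 kPa depend on length and GC too. With trends by the median over transcripts removed, cytolinkers had 15 lower (−0.24), remodellers 11 (−0.22) and HECT and giant ligases 10 (−0.17). Proteasome genes then had 11 higher and 4 lower (0.11), complex I 4 higher (0.07) and ribosomal proteins 11 higher and 1 lower (0.04). The share of all genes called in that adjusted fit was not counted, so its list counts stand without a background. None of these list differences was tested. The dispersion between libraries was 0.0168 in the paired fit, 0.0525 without pairs and 0.00423 at 10 kPa. MRPS6 rose at 120 kPa, at 41.7, 37.9 and 39.4 CPM in the controls and 61.7, 59.5 and 58.2 in siNemp1 (0.59 ± 0.10), and PTPRR, at 10.5, 9.90 and 14.3 against 22.1, 17.7 and 32.0 CPM, also rose there (1.03 ± 0.13). At 10 kPa they changed by −0.12 and −0.03, and the tests of the difference had adjusted p of 0.14 and 0.20 (edgeR, interaction). Across 13990 genes that test called 2 (0.0143%), AKR1B1 and GATAD2B, with 1106 at an unadjusted p under 0.05.

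**Figure D5:**
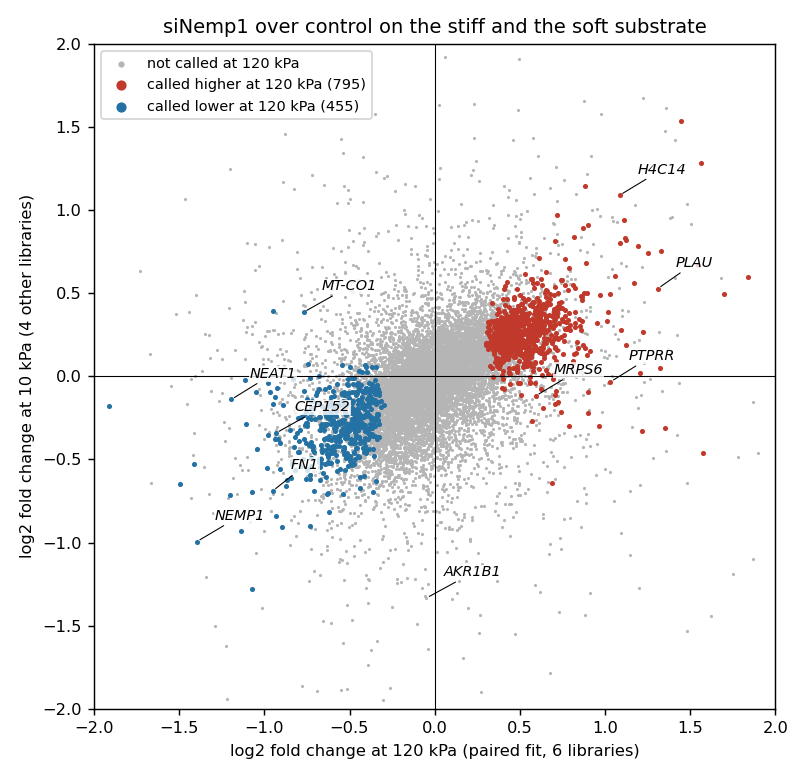
Log2 fold change of siNemp1 over control at 120 kPa (horizontal axis, paired fit of 6 libraries) against that at 10 kPa (vertical axis, fit of 4 other libraries), 1 point per gene, red and blue for the 795 and 455 genes called higher and lower at 120 kPa. Of 13122 genes, 37 lie outside the axes. Most red points lie in the upper right and most blue points in the lower left, with MT-CO1, PTPRR and MRPS6 among the exceptions, while AKR1B1 lies near 0 at 120 kPa and at −1.33 at 10 kPa.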

How the data were processed

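Ribosomal-RNA-depleted total RNA of 10 libraries was sequenced, per the labels' protocols. The authors' deposited table holds estimated counts per gene, which need not be whole. Salmon 1.80, Trimmomatic 0.33, FastQC 0.11.9 and edgeR, with GRCh38, are listed in the submitters' processing notes. Neither these nor the labels state the transcript annotation or strandedness, and short or repeated transcripts may share reads. The table has 40664 gene rows.

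Counts were rounded, filtered with filterByExpr, scaled by TMM and tested with edgeR 4.0.16 in R 4.3.3 (quasi-likelihood, robust, Benjamini-Hochberg adjustment, threshold 0.05) on the 6 libraries at 120 kPa. CPM values are per 1000000 scaled counts, except marker sums, which are not TMM-scaled. The main fit had no pairs and the other had the replicate number as a block. Whether the numbers pair the libraries was decided by a rule: the correlations of same-numbered libraries' deviations from their group means were 0.459, 0.141 and 0.367, each above 0.1, against −0.426 to 0.050 for different numbers. Deviations within a group cancel out, so positive values for same numbers force lower ones for different numbers. The latter are therefore no separate evidence of pairing. For number 2 the value of 0.141 stands beside 0.050 for control 3 with siNemp1 2. The labels do not say what a number marks. The 10 kPa libraries were fitted separately, and the difference between stiffnesses as an interaction over all 10. Lengths and GC came from GENCODE 29 for 98.9% of tested genes, as the median over transcripts and, added after seeing the data, of the longest transcript, and trends were removed with mgcv 1.9.3 as offsets. Alternatives used DESeq2 1.42.0, other scalings and filters, and each pair or library left out. The NRF1 and YY1 words were shortened by 1 letter after a first search. Scripts were tested on simulated data.

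Named genes were NEMP1, NEMP2 and 10 fixed genes, the 20 largest called rises and 20 largest falls (mean of at least 5 CPM, no overlap), the 10 most abundant called genes, and up to 4 called members of smallest p per list. Other named genes are said to be so in the text, apart from cell markers and 2 genes of the stiffness test. Some lists and markers are not reported here. Members and lists were chosen with earlier results of these data known. Total counts were 17.9 to 23.8 M per library over the series.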

Additional observations from a re-analysis of the deposited data

Results flagged for a closer look

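A test of the difference between stiffnesses (edgeR interaction, adjusted over 13990 genes) singled out 2 genes. AKR1B1, the aldose reductase that turns glucose into sorbitol, differed by 1.30 on the log2 scale (adjusted p 0.00084). At 120 kPa it lay at 730, 779 and 1038 CPM in the controls, and at 725, 794 and 924 after knockdown, with overlapping groups (−0.05 ± 0.09, n = 3 pairs). At 10 kPa it lay at 1734 and 1775 against 670.3 and 721 CPM (−1.33).

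GATAD2B, a subunit of the NuRD complex, differed by 6.88 on the log2 scale (adjusted p 0.00059). Its 120 kPa libraries held 1, 2 and 2 counts in control and 19, 56 and 47 in siNemp1, so its fitted fold rests on very few counts. At 10 kPa it lay at 3.85 and 4.40 against 0.711 and 0.809 CPM, the opposite direction.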

How the results depend on the processing

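No named gene changed sign with a call. The median changed sign under some setting in 15 of 58 lists, all with a paired median within 0.15 of 0, the largest shift being small RNA machinery (0.13, and −0.20 without pair 3). Without pairs, 0 genes were called at 120 kPa; the replicate block raised this to 1255, DESeq2 to 70, no filter on low counts to 12, and leaving out 1 library gave 0 to 1. From the 1255 paired calls, the fit without the block gave 0, all 10 libraries with a block 2854, leaving out pairs 1, 2 and 3 gave 553, 4 and 2363, and removal of longest-transcript length and GC trends 715. Upper-quartile scaling gave 604 higher and 503 lower (54.6% higher, against 63.7%). Of genes called higher, the percent above 0 at 10 kPa was 93.8 with length and GC trends removed (93.3 by the longest transcript), 91.3 without pair 1, 0 (of 1 gene) without pair 2 and 94.4 without pair 3. For genes called lower the percent below 0 was 94.7, 33.3 (of 3 genes) and 92.9 without pairs 1, 2 and 3. These direction alternatives and the longest-transcript ones were chosen after seeing the data. The difference between stiffnesses gave 1 call without the block. Of 224 named genes, 214 were called in the paired fit, NEMP1 among them. All 214 lost their call without the block, and likewise without pair 2. Of the 214, 100 lost it without pair 1, and 41 with length and GC trends removed, or 92 by the longest transcript. The cause of these changes was not tested.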
